A study of Mus musculus with 30 samples.

Results

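The keratin family was taken as every gene whose symbol is Krt followed by a number and, for some members, a letter, which leaves out the keratin-associated Krtap genes. This rule gave 54 of the 55487 genes in the files. Of the 54, 22 reached a mean of at least 1 CPM (counts per 1000000 counted reads of the library) in at least 1 of the 8 groups, and these 22 carry the results. Another 25 had reads in at least 1 library but stayed below that mean in every group, with 0.71 CPM as their highest group mean. The remaining 7 (Krt2, Krt27, Krt40, Krt72, Krt74, Krt81 and Krt82) had no read in any library, which at the summed depth of the 30 libraries allows a level of up to 0.00704 CPM (3 reads).

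The libraries came from a co-culture of primary mouse lung epithelial cells with CCL206, a mouse lung fibroblast line whose division had been stopped with mitomycin C. The epithelial cells (CD31-, CD45- and Epcam+) were from wild-type C57BL/6J mice of both sexes over 8 weeks old, and each of 4 mice gave 1 set of cultures. Cultures were treated for 72 h with vehicle, with EC (an exacerbation cocktail of IL-1β, IL-6, TNFα and IL-8, for which the study's methods give the chemokine KC where cells are from mouse), with IPFc (an idiopathic pulmonary fibrosis cocktail that held TGF-β, TSLP and CCL2 besides TNFα and the interleukins IL-33, IL-13, IL-4, IL-1β and IL-8) or with TGF-β alone at 2 ng/ml, and were then separated again with Epcam beads into an Epcam+ and an Epcam- fraction, called epithelial and fibroblast below. There were 4 epithelial libraries each for vehicle, EC and IPFc and 3 for TGF-β (mice 2, 3 and 4), and 4 fibroblast libraries each for EC, IPFc and TGF-β and 3 for vehicle (mice 1, 3 and 4). The fibroblasts are a single line, the same in every culture, so the mouse number of a fibroblast library names the epithelial donor and not the source of the fibroblasts.

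Library totals ran from 5113828 counted reads in the fibroblast EC library of mouse 1 to 20317181, with a median of 13843287. Epcam, the surface protein used for the sort, lay between 210 and 410 CPM in the epithelial libraries and between 3.00 and 111 CPM in the fibroblast libraries. The fibroblast fraction was therefore not free of epithelial RNA: the summed level of 36 epithelial reference genes was 6701 to 9735 CPM in its vehicle libraries and 281 to 815 CPM in its TGF-β libraries, against 19389 to 23833 CPM in the epithelial vehicle libraries. In the other direction, 30 fibroblast reference genes summed to 1751 to 2849 CPM in the epithelial vehicle libraries and to 16448 to 18541 CPM in the epithelial TGF-β libraries, with 2 of the 30 without a read in both. Ptprc, the pan-leukocyte marker, stayed at or below 1.10 CPM in all libraries, and the endothelial marker Cdh5 at or below 0.9 CPM.

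Keratins are the intermediate filament proteins of epithelial cells. Each filament is built from heterodimers of an acidic type I and a basic type II keratin, so the genes are expressed in pairs, and the pair in use marks the kind of epithelium and its state. In lung, Krt7, Krt8, Krt18 and Krt19 are the simple keratins of the airway and alveolar epithelium, Krt5, Krt14 and Krt15 mark airway basal cells, Krt4 and Krt13 mark the stratified hillock epithelium of the airway, and Krt6a, Krt16 and Krt17 are induced in wounded or stressed epithelium.

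All 54 genes lay in the gene clusters known for the family. By RefSeq positions on GRCm38.p6, 27 lay on chromosome 11 between 99232761 and 100269951, and 27 on chromosome 15 between 101348315 and 102032026. The chromosome 11 cluster holds type I genes and the chromosome 15 cluster type II genes, with the type I gene Krt18 at its edge, 23873 bases from its partner Krt8. Of the 22 expressed keratins, 10 lay on chromosome 11 and 12 on chromosome 15, so members of both clusters were in use.

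Promoters, defined as 250 bases before to 50 bases after the RefSeq start, were matched for 36 of the 54 keratins (37 entries) and for 14 of the 22 expressed ones. The promoters of Krt7, Krt8 and Krt18 are shown because these simple keratins carry most of the family's reads, Krt5 because it is the basal keratin with the largest difference between the fractions, and Krt13 and Krt79 because they changed under EC. Capitals mark CACCTG on either strand (read as CAGGTG on the other), the E-box bound by the SNAIL and ZEB repressors. They also mark TGANTCA, a loose form of the AP-1 site that allows any base in the middle. The sequences are from GRCm38.p6, each 5′ to 3′ on the strand of its gene.
Krt7, chr15:101412153-101412452, plus strand: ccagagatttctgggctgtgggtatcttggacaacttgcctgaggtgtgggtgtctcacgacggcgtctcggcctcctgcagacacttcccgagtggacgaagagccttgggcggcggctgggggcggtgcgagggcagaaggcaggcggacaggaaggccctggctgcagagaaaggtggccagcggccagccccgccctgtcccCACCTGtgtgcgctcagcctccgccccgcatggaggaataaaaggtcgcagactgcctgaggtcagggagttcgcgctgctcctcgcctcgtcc
Krt8, chr15:102004293-102004592, minus strand: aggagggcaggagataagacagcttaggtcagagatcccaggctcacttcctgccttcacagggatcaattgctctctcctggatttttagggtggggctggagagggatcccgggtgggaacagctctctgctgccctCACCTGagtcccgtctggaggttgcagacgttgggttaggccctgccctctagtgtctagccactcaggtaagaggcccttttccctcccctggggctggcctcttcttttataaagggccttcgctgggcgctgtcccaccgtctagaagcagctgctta
Krt18, chr15:102027966-102028265, plus strand: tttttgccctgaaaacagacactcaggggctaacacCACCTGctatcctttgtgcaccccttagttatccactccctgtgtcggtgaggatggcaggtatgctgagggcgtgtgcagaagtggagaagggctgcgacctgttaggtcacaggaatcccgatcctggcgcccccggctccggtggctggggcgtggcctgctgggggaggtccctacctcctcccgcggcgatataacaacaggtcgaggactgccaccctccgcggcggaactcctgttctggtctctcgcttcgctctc
Krt5, chr15:101712856-101713155, minus strand: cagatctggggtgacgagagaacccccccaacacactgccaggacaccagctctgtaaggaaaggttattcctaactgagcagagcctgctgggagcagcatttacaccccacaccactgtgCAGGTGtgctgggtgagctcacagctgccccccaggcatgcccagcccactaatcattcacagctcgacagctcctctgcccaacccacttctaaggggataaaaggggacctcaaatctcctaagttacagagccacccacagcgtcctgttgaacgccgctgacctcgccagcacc
Krt79, chr15:101940275-101940574, minus strand: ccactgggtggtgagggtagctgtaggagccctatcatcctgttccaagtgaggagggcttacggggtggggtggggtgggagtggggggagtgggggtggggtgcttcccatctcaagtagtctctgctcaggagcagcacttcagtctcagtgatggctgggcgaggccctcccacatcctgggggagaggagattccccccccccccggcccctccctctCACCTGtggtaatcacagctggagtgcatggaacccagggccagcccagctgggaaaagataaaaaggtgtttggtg
Krt13, chr11:100121517-100121816, minus strand: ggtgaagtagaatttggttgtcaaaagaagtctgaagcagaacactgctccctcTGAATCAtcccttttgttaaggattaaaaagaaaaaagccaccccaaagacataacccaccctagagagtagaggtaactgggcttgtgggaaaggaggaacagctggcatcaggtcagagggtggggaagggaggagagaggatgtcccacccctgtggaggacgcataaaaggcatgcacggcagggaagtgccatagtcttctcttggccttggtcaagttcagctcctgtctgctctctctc
Both partners Krt8 and Krt18 held the E-box letters, as did Krt5, Krt7 and Krt79. Krt13 held a match to the loose form TGANTCA, with A in the middle, and no E-box. CACCTG was present in 15 of the 37 keratin entries (40.5%) and in 9 of the 15 entries of expressed keratins, against 20.2% of the 32851 mouse promoters in the table. TGANTCA was present in 2 of the 37 entries (5.41%) against 7.81%, TATAAA in 19 of 37 (51.4%) against 13.6%, and the NF-kappaB consensus in 4 of 37 (10.8%) against 8.46%. Among the 15 entries of expressed keratins, TGANTCA was present in 2, TATAAA in 4 and the NF-kappaB consensus in 4. All 4 motifs were searched on both strands, and no search contains the letters of another. These are matches of letters and say nothing of binding in these cells.

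Keratin reads made up 1.42% to 1.76% of all counted reads in the epithelial vehicle libraries. Krt7, Krt8, Krt18 and Krt19 together held 88.4% to 96.7% of those keratin reads. Krt7, a type II simple keratin, stood at 6448, 6573, 7957 and 6351 CPM in mice 1 to 4, and Krt19, the type I keratin of simple epithelia, at 3577, 3400, 4090 and 3299 CPM. The partners Krt8 and Krt18 stood at 2164, 2141, 2525 and 2333 CPM and at 1591, 1584, 1847 and 1757 CPM. The 4 mice were alike in these genes, with mouse 3 highest in each.

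Between genes, levels were compared per kb of the canonical transcript. On that scale Krt19 was highest in epithelial vehicle libraries at 2279 ± 223 CPM per kb (SD, n = 4), followed by Krt7 at 1669 ± 184 CPM per kb. Krt18 at 1180 ± 89.9 CPM per kb and Krt8 at 1170 ± 90.9 CPM per kb did not differ beyond their spread. The place of Krt7 depends on the length used, because its transcript has 4094 bases of which 1371 are coding: per kb of coding sequence Krt7 was highest at 4983 ± 551 CPM per kb, ahead of Krt19 at 2971 ± 291, Krt8 at 1558 ± 121 and Krt18 at 1336 ± 102. Below the simple keratins came Krt5 at 151 ± 137, Krt4 at 94.5 ± 15.3, Krt15 at 62.6 ± 44.2 and Krt80 at 55.5 ± 3.36 CPM per kb of transcript. Krt6a, Krt14, Krt17 and Krt79 lay between 23.5 and 33.9 CPM per kb, Krt13, Krt23 and Krt16 between 4.28 and 8.64, and Krt36, Krt10, Krt78, Krt87, Krt90, Krt84 and Krt20 between 0.294 and 1.21. From Krt5 down to Krt79, neighbours in this order did not differ beyond their spread between mice.

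**Figure D1:**
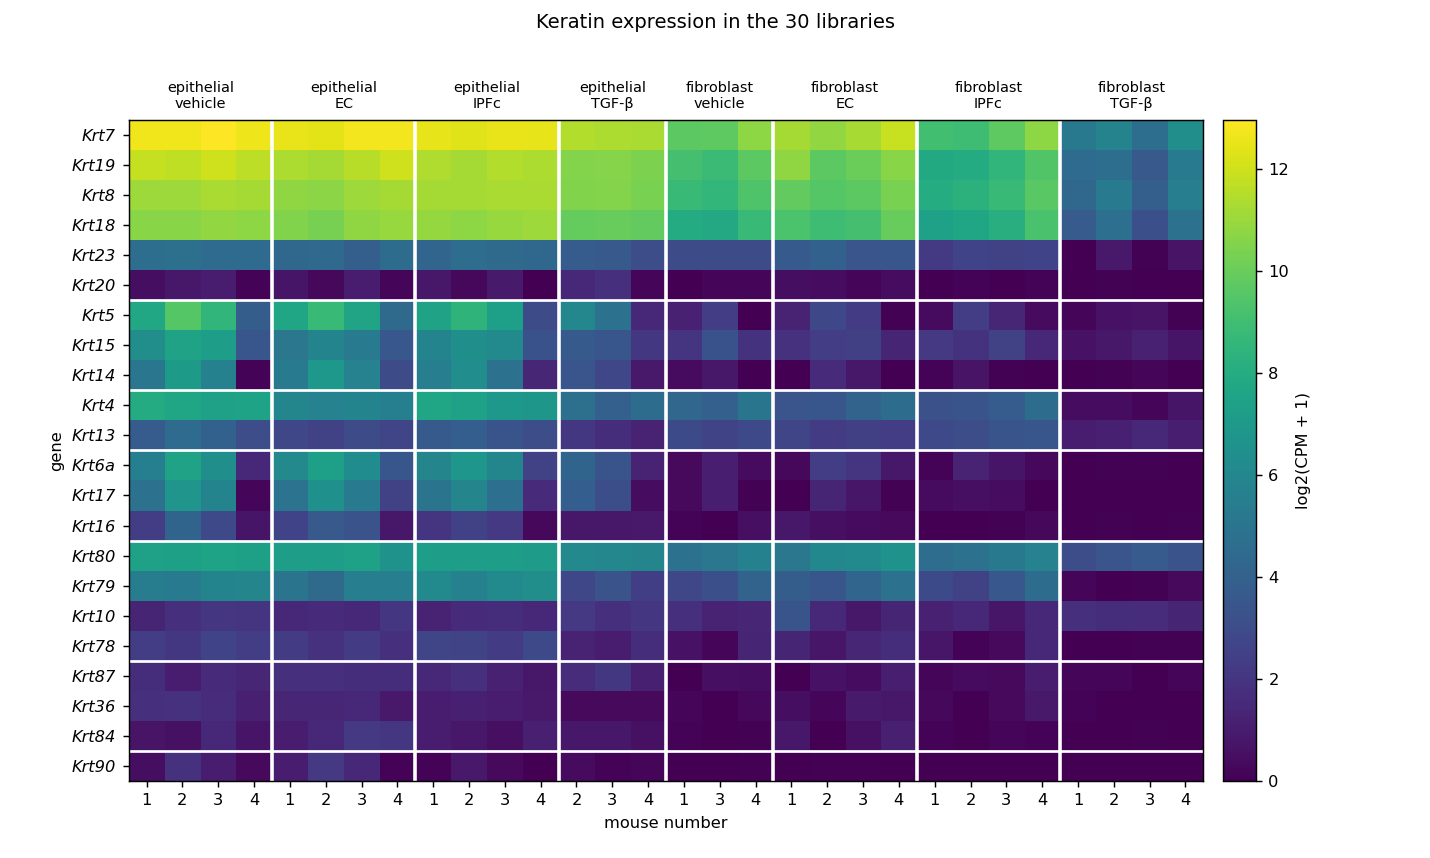
Level of the 22 expressed keratins, in rows ordered by role, in each of the 30 libraries, in columns by group and mouse, as log2(CPM + 1). Krt7, Krt8, Krt18 and Krt19 are high in every epithelial library and lowest in the fibroblast TGF-β libraries, and the basal and stress keratins are low in mouse 4.

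The summed type II level per kb of transcript was close to the summed type I level in every epithelial group. The type II to type I ratio was 0.860 to 0.926 under vehicle, 0.735 to 1.00 under EC, 0.905 to 0.981 under IPFc and 0.861 to 0.895 under TGF-β. The ratio and the order of the groups in it depend on the length taken for Krt7. Within the pair Krt8 and Krt18 the CPM ratio was 1.33 to 1.37 under vehicle, 1.21 to 1.32 under EC, 1.22 to 1.37 under IPFc and 1.41 to 1.53 under TGF-β, so the TGF-β libraries lay above all other epithelial libraries. The ratio of Krt8 to Krt19 was 0.605 to 0.707 under vehicle and 0.578 to 0.718 under EC, and higher, at 0.869 to 0.989 under IPFc and 0.941 to 0.971 under TGF-β, with no overlap between the first pair of groups and the second. These ratios are descriptions and were not tested.

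Mice differed most in the basal and stress keratins. Krt5, the type II keratin of basal cells, stood at 220, 732, 371 and 13.4 CPM in the vehicle cultures of mice 1 to 4, and its type I partner Krt14 at 33.3, 134, 51.4 and 0.0806 CPM. The stress keratins Krt6a (46.5, 173, 88.2 and 1.69 CPM) and Krt17 (28.2, 106, 57.0 and 0.161 CPM) had the same order, with mouse 2 highest and mouse 4 lowest. Trp63, the transcription factor of basal cells, was likewise lowest in mouse 4, at 7.71, 17.0, 13.0 and 1.45 CPM. The hillock keratin Krt4 did not share this order, at 247, 202, 173 and 185 CPM. In bulk libraries, fewer cells of a type and less RNA of a gene per cell cannot be told apart, here or in the comparisons that follow.

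Treatments were compared with vehicle within each fraction with the mouse as a block, so that each treated culture was set against the vehicle culture of the same mouse, and a gene was called at an adjusted p under 0.05 over all genes tested. Fold changes are log2 values ± SE. EC lowered both hillock keratins in epithelial cells and left the simple keratins without a call. Of the 54 keratins 30 passed the filter of a mean count of at least 1 and were tested, and of these 4 fell and 1 rose, against 4.67% of all 17789 genes called, and the median log2 fold change of the keratins was -0.20 against -0.01 for all genes. Krt4 fell from 247, 202, 173 and 185 CPM to 61.6, 53.1, 55.6 and 46.7 CPM in mice 1 to 4, with no overlap between the groups. This was a log2 fold change of -1.86 ± 0.09 (SE, n = 4 mice, adjusted p = 1.5e-09), or 3.63-fold lower, and it was called under all 11 alternative settings. Its type I counterpart Krt13 went from 12.6, 22.1, 15.3 and 7.26 CPM to 5.89, 4.80, 6.81 and 5.62 CPM (-1.21 ± 0.22, adjusted p = 0.00278), also without overlap. Together the hillock keratins were left at 25.9% to 33.2% of the vehicle level of the same mouse.

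The basal keratins did not move together under EC. Krt15, a type I basal keratin, went from 84.9, 177, 154 and 10.2 CPM to 34.0, 56.4, 38.4 and 10.3 CPM, so that 3 mice were lower and mouse 4 was not (-1.35 ± 0.21, adjusted p = 0.00054). Krt5 was at 204, 428, 189 and 21.2 CPM under EC, lower in 3 mice and higher in mouse 4, and its log2 fold change was -0.36 ± 0.18 (adjusted p = 0.386). The median ratio of Krt5 to Krt15 CPM was accordingly 2.50 under vehicle and 5.46 under EC. Krt79, a type II keratin of hair follicles and sebaceous ducts, was lower in all 4 mice at 31.0, 21.5, 45.9 and 45.1 CPM against 42.7, 38.9, 57.1 and 58.4 CPM (-0.47 ± 0.11, adjusted p = 0.0213). Krt84, a type II hair keratin, went from 0.614, 0.481, 1.77 and 0.645 CPM to 1.04, 1.75, 3.43 and 3.11 CPM, higher in all 4 mice but with overlapping groups (1.42 ± 0.38, adjusted p = 0.0403), and was called under 5 of 11 alternative settings.

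The simple keratins were not called under EC, with -0.10 ± 0.09 for Krt7 (adjusted p = 0.692), -0.18 ± 0.09 for Krt8 (adjusted p = 0.399), -0.06 ± 0.09 for Krt18 (adjusted p = 0.861) and -0.25 ± 0.12 for Krt19 (adjusted p = 0.382), all on the log2 scale. Krt19 was at 73.1%, 68.7% and 74.4% of the vehicle level in mice 1 to 3 and at 126% in mouse 4. Mouse 4 went against the other mice, with total keratin at 110% of its vehicle level against 76.6% as the lowest mouse. Without mouse 4, Krt5 at -0.62, Krt7 at -0.19 and Krt8 at -0.28 passed the threshold, and 10 keratins in place of 5 were called. Without mouse 2 the count was 3, and without the mouse as a block it was 2, which were the hillock keratins Krt4 and Krt13. Stress keratins in mouse 4 stood at 637% of the vehicle level, from a summed vehicle level of 2.50 CPM.

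Under IPFc 2 of 6 simple, 2 of 3 basal, 1 of 2 hillock and 1 of 4 stress keratins fell in epithelial cells, and Krt79 rose. Of 31 keratins tested 6 fell and 1 rose, against 5.94% of all 17927 genes called, with a keratin median log2 fold change of -0.41 against 0.00 for all genes. Krt5 fell to 177, 344, 160 and 7.14 CPM in mice 1 to 4, lower in 4 of 4 mice (-0.89 ± 0.11, adjusted p = 1.5e-06). Krt15 fell to 56.5, 85.8, 73.7 and 8.78 CPM (-0.80 ± 0.11, adjusted p = 7.58e-06), again in every mouse. The groups overlapped in both genes, as the mice differed more from each other than from their own vehicle cultures.

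Among the simple keratins, Krt19 was at 2764, 2408, 2784 and 2612 CPM under IPFc, below every vehicle library (-0.45 ± 0.07, adjusted p = 4.1e-05). Krt7 was at 5781, 5130, 5890 and 5682 CPM, also below every vehicle library (-0.28 ± 0.07, adjusted p = 0.00712). Krt8 at 0.11 ± 0.07 (adjusted p = 0.526) and Krt18 at 0.19 ± 0.07 (adjusted p = 0.126) were not called, so the pairs Krt7 with Krt19 and Krt8 with Krt18 gave different results. Krt4 at 202, 171, 121 and 116 CPM was lower in all 4 mice (-0.44 ± 0.08, adjusted p = 0.000766), as was the stress keratin Krt16 at 3.03, 4.90, 3.49 and 0.233 CPM (-1.12 ± 0.25, adjusted p = 0.00377). Krt79 was higher in all 4 mice, at 69.9, 50.3, 70.0 and 82.9 CPM (0.46 ± 0.09, adjusted p = 0.00146). Without the mouse as a block 1 keratin was called in place of 7, namely Krt19. In a single model of all 15 epithelial libraries 3 were called. Of the fibroblast reference genes 16 of 27 tested were called higher and none lower in the same comparison. Their summed level was 1910 to 4651 CPM, against 1751 to 2849 CPM under vehicle, and the part of this RNA in the fall of the keratins was not tested.

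TGF-β lowered keratins of every role by edgeR. Of 31 keratins tested 20 fell and none rose, against 41.5% of all 18418 genes called and 20.3% called lower, with a keratin median log2 fold change of -2.90 against 0.05 for all genes. Total keratin in epithelial libraries was left at 38.9% to 44.8% of the vehicle level of the same mouse, and keratin reads made up 0.619% to 0.694% of all reads. DESeq2 called 15 keratins in place of 20, without Krt14, Krt16, Krt17, Krt6b and Krt33a. Scaling the library sizes by TMM moved the mean total in the TGF-β libraries from 6659 to 6222 CPM.

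Among the 22 expressed keratins the largest fold changes were in the basal keratins. Krt5 fell to 61.8, 28.6 and 1.81 CPM in mice 2, 3 and 4, from 732, 371 and 13.4 CPM (-3.67 ± 0.13, n = 3 mice, adjusted p = 2.76e-57), a 12.8-fold reduction. Krt15 fell to 11.7, 9.96 and 3.26 CPM (-3.75 ± 0.16, adjusted p = 8.34e-47) and Krt14 had -3.50 ± 0.20 (adjusted p = 9.61e-35). In Krt14 mouse 4 went the other way, from 0.0806 to 0.846 CPM, whereas mice 2 and 3 went from 134 and 51.4 to 9.56 and 5.67 CPM. Trp63 fell too, at -2.17 ± 0.26 (adjusted p = 1.65e-12).

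The stress and hillock keratins were lower by similar amounts. Krt6a fell to 17.2, 9.32 and 1.33 CPM (-3.25 ± 0.16, adjusted p = 2.26e-39), and its near-identical paralogue Krt6b, whose reads may have been split with it in counting, had 14 reads in the vehicle libraries of these mice and none under TGF-β, at least 4.07-fold lower (3 reads over the group, adjusted p = 0.0272). Krt16 had -3.27 ± 0.39 (adjusted p = 8.95e-13) and Krt17 -2.97 ± 0.18 (adjusted p = 2.62e-33), and in both mice 2 and 3 were lower and mouse 4 was higher. Krt4 fell to 26.6, 14.8 and 22.6 CPM (-3.26 ± 0.12, adjusted p = 6.89e-55) and Krt13 to 3.29, 2.27 and 1.45 CPM (-2.77 ± 0.23, adjusted p = 2.05e-21), both below every vehicle and every IPFc library. Krt79 fell to 5.68, 9.07 and 4.35 CPM (-3.08 ± 0.15, adjusted p = 1.02e-39), the keratin that had risen under IPFc.

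The simple keratins had smaller fold changes. Krt7 was at 2791, 2654 and 2506 CPM under TGF-β (-1.49 ± 0.08, adjusted p = 2.11e-35) and Krt19 at 1519, 1568 and 1342 CPM (-1.39 ± 0.09, adjusted p = 1.19e-31). Krt8 was at 1429, 1482 and 1304 CPM (-0.84 ± 0.09, adjusted p = 5.55e-16) and Krt18 at 961, 971 and 926 CPM (-0.97 ± 0.09, adjusted p = 4.23e-19). All 4 lay below every vehicle library. Krt80, a type II keratin of differentiating epithelia, had -1.54 ± 0.10 (adjusted p = 3.61e-28) and the type I keratin Krt23 had -1.29 ± 0.16 (adjusted p = 7.51e-12). At low levels Krt36 (-3.07 ± 0.65), Krt78 (-1.54 ± 0.36) and Krt90 (-2.90 ± 0.87) also fell, as did Krt33a, with 37 reads under vehicle and 1 under TGF-β, a ratio of 32.3 with a 95% counting interval of 5.45 to 1309.

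Epithelial and fibroblast reference genes changed too under TGF-β, not all in the direction of the keratins. Of 36 epithelial reference genes 28 were called lower and 3 higher, against 41.5% of all genes called. Of 28 fibroblast reference genes tested 27 were called higher and none lower. Epcam rose to 384 to 410 CPM (0.78 ± 0.09, adjusted p = 1.51e-12) and the adherens junction gene Cdh1 was not called (0.10 ± 0.09, adjusted p = 0.381), while the summed epithelial reference genes were at 8369 to 11450 CPM. The summed fibroblast reference genes in the same libraries were at 16448 to 18541 CPM. In the fibroblast fraction their sum was 48132 to 52933 CPM under TGF-β and 23692 to 27966 CPM under vehicle. The part of this fibroblast RNA in the fall of the keratins was not tested.

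**Figure D2:**
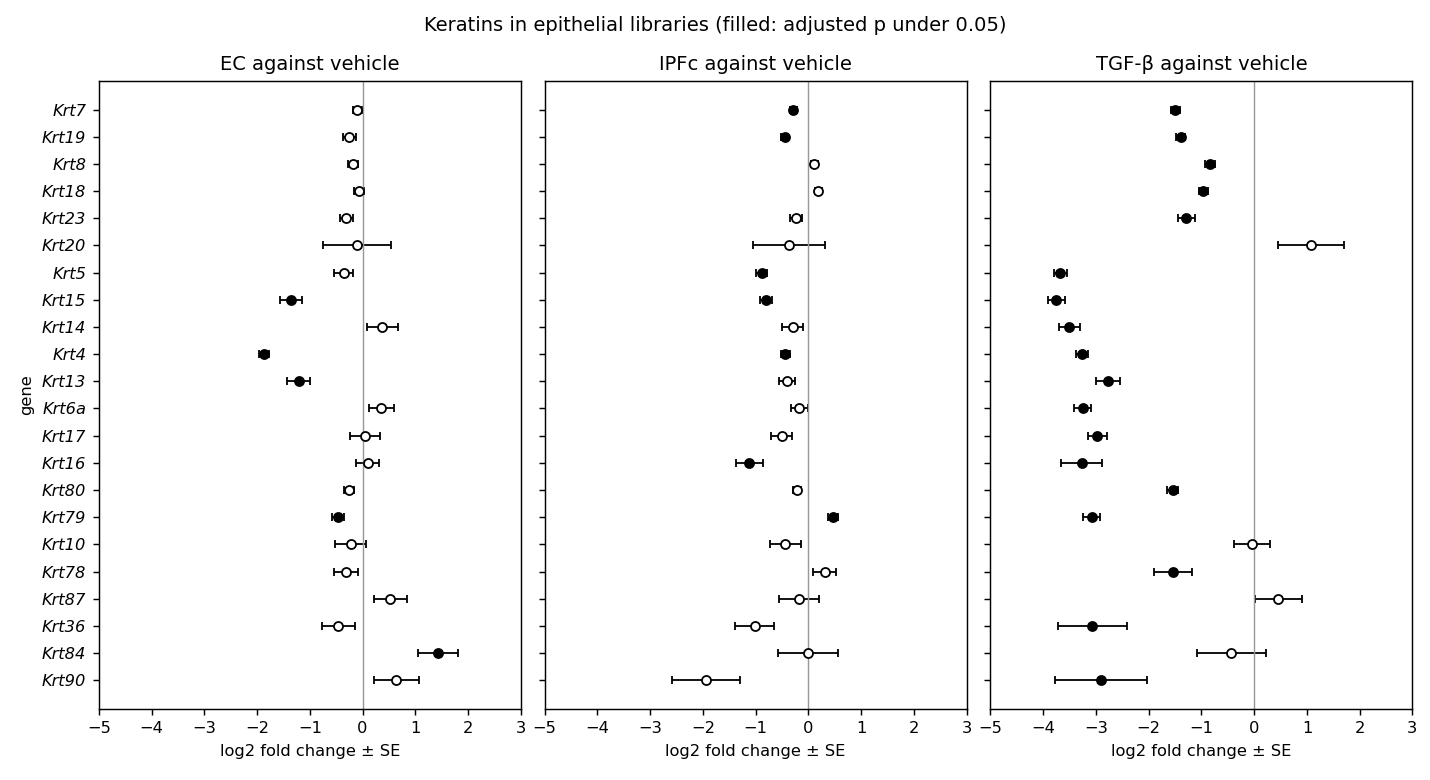
Log2 fold change against vehicle, with its SE, of the expressed keratins in epithelial libraries for EC, IPFc and TGF-β. Filled points have an adjusted p under 0.05. Under EC the lowest filled point is Krt4 at -1.86, under IPFc the called points lie between -1.12 and 0.46, and under TGF-β they reach -3.75.

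**Figure D3:**
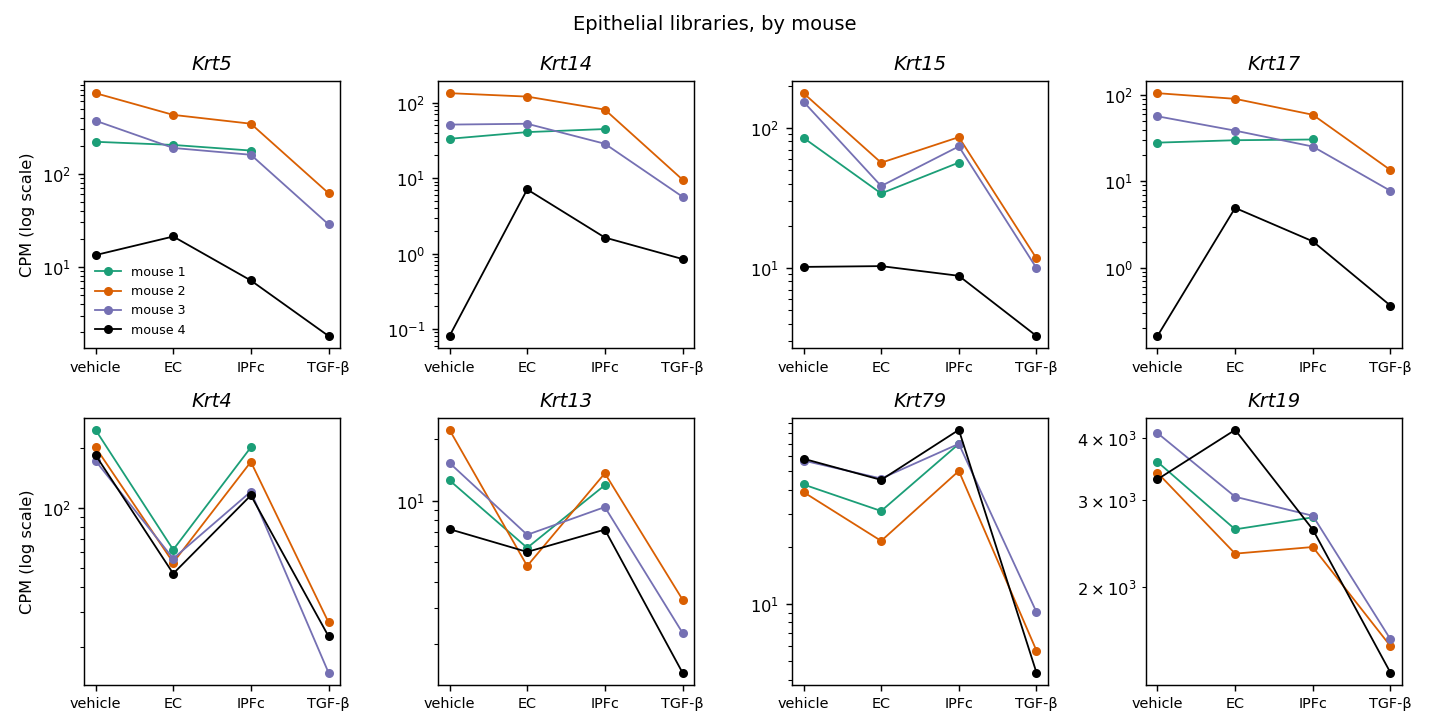
CPM, on a log axis, of Krt5, Krt14, Krt15, Krt17, Krt4, Krt13, Krt79 and Krt19 in each epithelial library, with 1 line for each mouse and its own axis in each panel. Mouse 4 starts far below the others in Krt5, Krt14 and Krt17, while Krt4 falls under EC in all 4 mice.

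Treatments were also compared with each other within mice, and these comparisons share libraries with those against vehicle. EC against IPFc gave 3 keratins higher and 3 lower of 29 tested, against 3.54% of all genes called. Krt4 had -1.42 ± 0.12 (adjusted p = 5.56e-07), Krt79 -0.93 ± 0.13 (adjusted p = 0.000145) and Krt13 -0.80 ± 0.20 (adjusted p = 0.032), all lower under EC. The stress keratins Krt16 (1.19 ± 0.23, adjusted p = 0.00377) and Krt6a (0.51 ± 0.13, adjusted p = 0.0375) and the low Krt90 (2.52 ± 0.55, adjusted p = 0.0109) were higher under EC. Without mouse 4 the count was 11, without mouse 3 it was 2, without mouse 1 it was 9 and without the mouse as a block 1, which was Krt4.

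EC against TGF-β gave 21 keratins higher and none lower of 29 tested, against 32.7% of all genes called and 16.6% called higher. The values ran from 3.57 ± 0.21 for Krt14 (adjusted p = 2.99e-14), 3.26 ± 0.19 for Krt6a and 3.06 ± 0.18 for Krt5 down to 0.73 ± 0.17 for Krt8 (adjusted p = 0.00107). Between them lay Krt16 at 3.13, Krt17 at 2.80, Krt79 at 2.67, Krt15 at 2.18, Krt4 at 1.49, Krt13 at 1.47, Krt7 at 1.44, Krt80 at 1.32, Krt19 at 1.25, Krt23 at 1.03 and Krt18 at 0.98. At low levels Krt90 had 3.44, Krt36 2.61, Krt84 2.05 and Krt78 1.17, Krt6b had 25 reads against 0 (at least 7.68-fold higher, 3 reads over the group), and Krt33a 21 reads against 1 (a ratio of 19.4 with a 95% counting interval of 3.11 to 801). IPFc against TGF-β gave 17 higher and 1 lower of 27, against 36.6% of all genes called. Krt79 at 3.50 ± 0.18 (adjusted p = 1.99e-10), Krt4 at 2.83 ± 0.12 and Krt15 at 2.79 ± 0.20 led those higher under IPFc, followed by Krt14 at 2.78, Krt6a at 2.76, Krt5 at 2.59, Krt13 at 2.25, Krt36 at 2.14, Krt17 at 2.12, Krt78 at 1.88, Krt16 at 1.75, Krt80 at 1.37, Krt7 at 1.21, Krt23 at 1.19, Krt18 at 1.17, Krt8 at 0.98 and Krt19 at 0.96 ± 0.07 (adjusted p = 2.84e-08). Krt20, a simple keratin of gut and urothelium, was the 1 that was lower (-1.96 ± 0.69, adjusted p = 0.0327), at a mean of 0.379 CPM under IPFc and 1.45 CPM under TGF-β, and its call was lost without mouse 2 or mouse 3. On the log2 scale the basal, hillock and stress keratins were at 1.47 or more under EC and 1.75 or more under IPFc, and the simple keratins at 1.44 or less and 1.21 or less. These limits were read from the values themselves. Under EC the hillock keratins Krt13 at 1.47 and Krt4 at 1.49 lay close to the simple keratin Krt7 at 1.44, so they were not set apart from it.

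The fractions were compared in vehicle cultures of mice 1, 3 and 4. Of 28 keratins tested 23 were higher in epithelial libraries and 1 was lower, against 45.8% of all 18594 genes called, with a keratin median log2 difference of 3.14 against -0.03. Krt5 had the largest, at 7.03 ± 0.31 (adjusted p = 1.1e-98), with 1.26, 4.10 and 0 CPM in the fibroblast libraries. Krt6a at 6.11 ± 0.38 was near it, as were Krt14 at 6.32 ± 0.44 and Krt17 at 5.89 ± 0.42, added to the 10 keratins of highest level after their values were seen. Krt15 at 3.77 ± 0.27, Krt4 at 3.30 ± 0.23, Krt7 at 2.74 ± 0.22, Krt19 at 2.65 ± 0.22, Krt18 at 2.62 ± 0.21, Krt79 at 2.55 ± 0.24, Krt8 at 2.32 ± 0.21 and Krt80 at 2.28 ± 0.22 were smaller. By these fold changes Krt5, Krt14, Krt6a and Krt17 were far scarcer in the fibroblast fraction than the simple keratins relative to their epithelial level. For Krt6a this did not hold in mouse 4, where it was at 18.9% of its epithelial level and Krt18 at 24.6%. Krt14 and Krt17 stood at only 0.0806 and 0.161 CPM in the epithelial vehicle library of mouse 4, so their differences rest on mice 1 and 3. Krt76, a type II keratin of the oral mucosa, was the 1 lower keratin, chosen here after its values were seen, with no read in the epithelial libraries and 14 in the fibroblast ones, at least 5.36-fold lower (3 reads over the group, adjusted p = 0.0174).

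As a share of the epithelial library of the same vehicle culture, the fibroblast level of Krt7 was 10.7% to 27.5% and that of Krt5 0% to 1.11%. Of the 36 epithelial reference genes 35 entered the median in the same cultures, and 29 to 35 over all treatments, so the set of genes differed between treatments. The median was 18.3% to 32.4% in the vehicle cultures, with lower quartiles of 14.0% to 26.4%. Krt7 was below the median in all 3 cultures and below the lower quartile in mice 1 and 3, and Krt5 was far below in each. Under EC the reference median was 32.0% to 64.2% and Krt7 33.5% to 54.5%. Under IPFc they were 13.0% to 32.8% and 9.10% to 30.9%, and under TGF-β 1.04% to 3.80% and 0.938% to 3.34%. The Krt7 share and the reference median were both highest under EC and lowest under TGF-β, and Krt5 stayed at or below 4.34%. Some keratins lay above the reference median. Among them were Krt13 at 35.0% to 86.5% under vehicle, and Krt80 at 14.5% to 19.6% and Krt15 at 6.47% to 20.2% under TGF-β. The low Krt10 was at 43.5% to 160% under vehicle and at 47.7% to 88.7% under TGF-β.

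**Figure D4:**
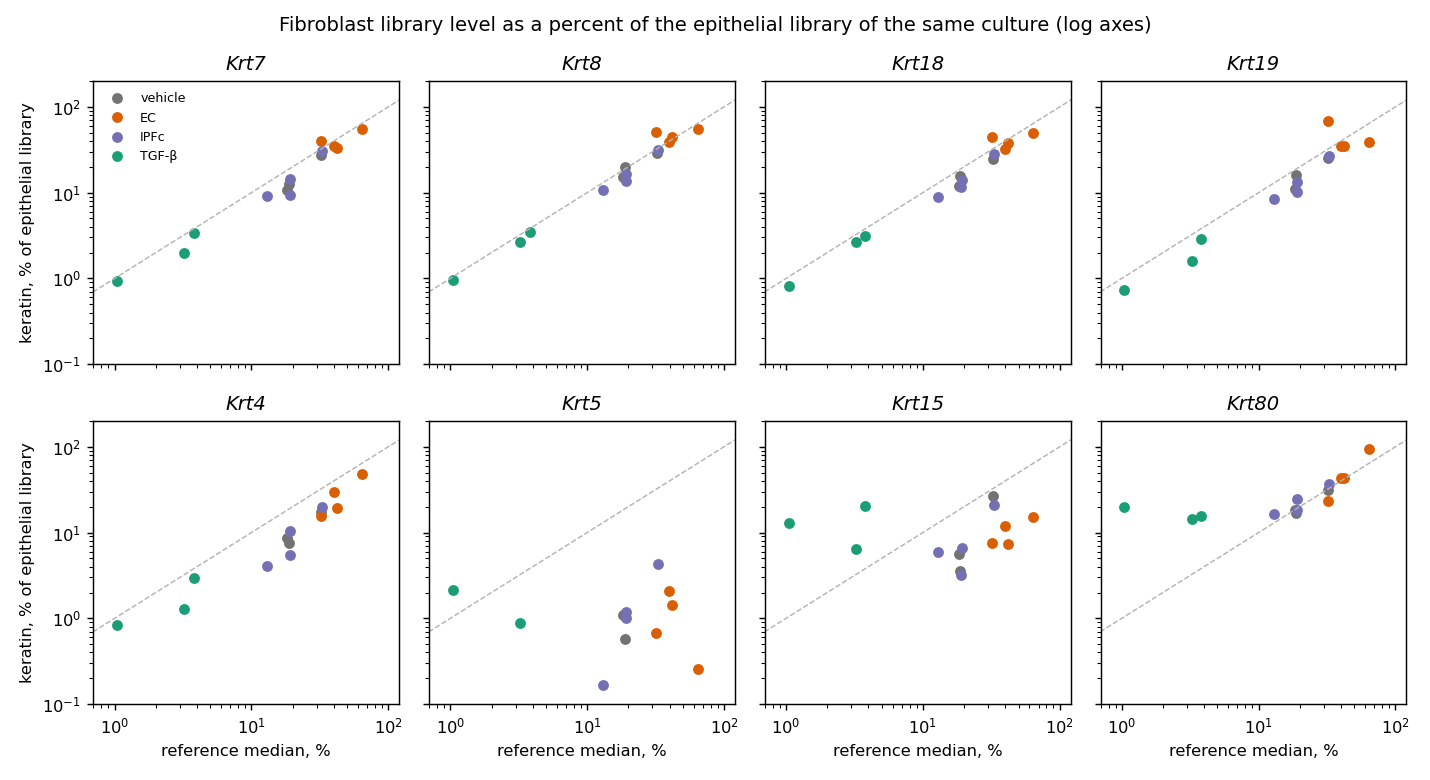
Level of a keratin in the fibroblast library as a percent of its level in the epithelial library of the same culture, on log axes. The other axis is the median of the same percent over the 29 to 35 epithelial reference genes that entered in each culture. A dashed line marks equality. Values at 0, and cultures with under 20 epithelial reads of the keratin, are not drawn. Krt7 runs from 0.938% under TGF-β to 54.5% under EC, and its 3 vehicle points lie below the line.

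In the fibroblast fraction, EC raised the simple keratins. Of 23 keratins tested 7 rose and none fell, against 10.1% of all 18152 genes called and 6.4% called higher. The keratin median log2 fold change was 1.12 against -0.01 for all genes. Krt7 was at 823, 849 and 1745 CPM in the vehicle libraries of mice 1, 3 and 4 and at 2354, 2433 and 3691 CPM in their EC libraries, without overlap (1.47 ± 0.17, adjusted p = 3.63e-15), while mouse 2, without a vehicle library, had 1832 CPM under EC. Krt19 (1.37 ± 0.17, adjusted p = 1.3e-12), Krt18 (1.39 ± 0.18, adjusted p = 2.46e-12) and Krt8 (1.15 ± 0.17, adjusted p = 8.53e-09) rose alongside, in 3 of 3 mice. So did Krt79 (1.12 ± 0.23, adjusted p = 7.66e-05), Krt80 (0.87 ± 0.19, adjusted p = 0.000292) and Krt84, with 34 reads under EC and 2 under vehicle, a ratio of 17.5 with a 95% counting interval of 4.49 to 151. Without the mouse as a block edgeR called none, with 10 at an unadjusted p under 0.05, and Krt80 and Krt84 lost their call without mouse 3 or mouse 4. The summed epithelial reference genes in the same fraction were at 8448 to 11956 CPM under EC against 6701 to 9735 CPM under vehicle. Of these 36 genes 25 were called higher and none lower, against 6.4% of all genes called higher, with a median log2 fold change of 0.87. The part of epithelial RNA in the rise was not tested.

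IPFc left all 22 keratins tested in the fibroblast fraction without a call by edgeR, with 4 at an unadjusted p under 0.05 and 0 called by DESeq2, against 1.27% of all 18127 genes called. Total keratin was at 57.6% to 105% of the vehicle level of the same mouse. TGF-β lowered 14 of 21 and raised none, against 19.6% of all 18066 genes called and 12.5% called lower, with a keratin median of -2.57 against -0.02. DESeq2 called 10 in place of 14, without Krt5, Krt6a, Krt17 and Krt78. Krt7 was at 37.0, 55.3, 24.9 and 83.8 CPM in mice 1 to 4 under TGF-β, below every vehicle library (-4.53 ± 0.19, n = 3 mice, adjusted p = 4.75e-120). Krt19 had -4.68 ± 0.19 (adjusted p = 1.24e-125), Krt4 -5.79 ± 0.32 and Krt79 -5.89 ± 0.45, and Krt8, Krt18 and Krt23 lay between -4.24 and -4.79. Keratin reads were left at 0.00771% to 0.0213% of all reads, and the epithelial reference genes fell to 281 to 815 CPM in the same libraries, as given above.

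Some keratins had smaller fold changes there. Krt80 had -1.87 ± 0.20 (adjusted p = 1.81e-19), Krt13 -2.08 ± 0.35 (adjusted p = 5.54e-08) and Krt15 -2.31 ± 0.41 (adjusted p = 3.6e-07). Krt5 with -2.32 ± 0.78 (adjusted p = 0.0178), Krt78 with 2 reads against 33 and Krt6a with 1 read against 23 were at low levels. For Krt78 the ratio of vehicle to TGF-β was 18.1 with a 95% counting interval of 4.64 to 156, and for Krt6a 25.3 with 4.10 to 1041. Krt17, with no read under TGF-β and 19 under vehicle, was at least 6.96-fold lower (3 reads over the group, adjusted p = 0.0217). In the fibroblast comparisons the prior degrees of freedom were infinite, so that the spread of a single gene over the mice had no weight and the adjusted p are optimistic. They were 132 in epithelial cells under TGF-β and 1990 between fractions under vehicle, each against 2 residual degrees of freedom. The spread of a single gene had little weight there, and those adjusted p are optimistic too.

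The response in epithelial cells was compared with that in the fibroblast fraction, as the epithelial minus the fibroblast log2 fold change. Each fraction entered with the mice that had both its treated and its vehicle library, so the mice differed between the fractions. For TGF-β these were mice 2, 3 and 4 in the epithelial and mice 1, 3 and 4 in the fibroblast fraction. For EC, 9 of 30 keratins differed and all 9 were lower in epithelial cells, against 4.96% of all 18204 genes called and 3.68% called lower. Krt19 at -1.60 ± 0.23 (adjusted p = 0.000764), Krt79 at -1.56 ± 0.21, Krt7 at -1.55 ± 0.17 (adjusted p = 0.000219), Krt4 at -1.53 ± 0.22, Krt18 at -1.43 ± 0.17, Krt8 at -1.30 ± 0.16, Krt80 at -1.11 ± 0.21, Krt23 at -0.995 ± 0.24 and Krt36 at -3.07 ± 0.84 were those 9. Without the mouse as a block edgeR called none, with 15 at an unadjusted p under 0.05. For IPFc 0 of 31 keratins differed by edgeR, with 3 at an unadjusted p under 0.05 and 0 by DESeq2, against 0.381% of all 18350 genes. For TGF-β, 8 of 27 differed, 7 of them with the smaller fall in epithelial cells, against 26.8% of all 18560 genes called. Krt8 at 3.39 ± 0.20, Krt23 at 3.38 ± 0.51, Krt19 at 3.27 ± 0.20, Krt18 at 3.25 ± 0.20, Krt7 at 3.02 ± 0.19, Krt79 at 2.77 ± 0.50 and Krt4 at 2.48 ± 0.35 were those 7. Krt15 at -1.32 ± 0.45 (adjusted p = 0.0269) was the 1 that fell more in epithelial cells, and it lost its call under 6 alternative settings.

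Keratin filaments are tied to the cell surface and to each other by plakins and by the proteins of desmosomes and hemidesmosomes, 27 of which were followed. EC lowered 6 of 23 tested in epithelial cells and raised none, and IPFc did so in the same numbers, 6 of 23, with medians of -0.30 and -0.27, against 4.67% and 5.94% of all genes called. The plakins Evpl (-0.59 ± 0.09, adjusted p = 0.000824) and Ppl (-0.55 ± 0.09, adjusted p = 0.00157) and the desmosomal Dsp (-0.54 ± 0.11, adjusted p = 0.00663) led under EC. Under IPFc they had -0.49 ± 0.09, -0.34 ± 0.07 and -0.41 ± 0.08. TGF-β lowered 14 of 23 and raised 3, against 41.5% of all genes called and 20.3% called lower, with Ppl at -1.28 ± 0.10 (adjusted p = 1.71e-24), Fam83h at -1.18 ± 0.10 and Col17a1, the hemidesmosome collagen, at -1.87 ± 0.20, against Dst at 0.45 ± 0.10, Cd151 at 0.37 ± 0.10 and Plec at 0.23 ± 0.09. Without mouse 4, Dst at 0.23 and Plec at 0.072 were not called, and Plec, lower in 1 of 3 mice, was called under 3 of 10 alternative settings. In the fibroblast fraction EC raised 5 of 21 and lowered 2, against 10.1% of all genes called, led by Perp (1.35 ± 0.22), Pkp3 (0.91 ± 0.21) and Dsg2 (0.94 ± 0.24), with Plec (-0.78 ± 0.18) and Dst (-0.75 ± 0.19) lower. Plec and Dst were called under 4 and 5 of 10 alternative settings, with -0.25 and -0.30 without mouse 1, and neither was called without mouse 1 or without mouse 4. IPFc gave 0 calls there by edgeR or DESeq2, with 0 at an unadjusted p under 0.05. TGF-β lowered 12 of 21, against 12.5% of all genes called lower, led by Ppl (-4.78 ± 0.22), Dsp (-3.68 ± 0.22) and Perp (-5.07 ± 0.36), and raised Jup (1.16 ± 0.17), Dst (0.56 ± 0.16, called under 7 of 10 alternative settings) and Plec (0.53 ± 0.17, under 6 of 10).

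Of 36 genes of the cornified envelope, the cross-linked layer that forms over keratin filaments in stratified epithelia, EC lowered 2 of 23 tested and raised 1 in epithelial cells, against 4.67% of all genes called. Sprr1a (-1.14 ± 0.10, adjusted p = 1.82e-06) and Scel (-0.94 ± 0.20) fell and Crct1 (1.49 ± 0.30) rose. IPFc raised 4 of 24 and lowered 2, against 5.94%. Sprr2a3 went from a mean of 44.0 ± 10.2 to 217 ± 43.8 CPM (SD, n = 4; 2.30 ± 0.08, adjusted p = 1.19e-17), Sprr2a2 had 1.84 ± 0.32 and involucrin, Ivl, 0.85 ± 0.15, while Sprr1a (-1.07 ± 0.11) and Cnfn (-1.34 ± 0.38, called under 4 of 11 alternative settings) fell. The Sprr2a genes are near-identical copies whose reads may have been split between them. TGF-β lowered 8 of 24 and raised 1, against 41.5% of all genes called and 20.3% called lower. The cross-linking enzyme Tgm1 was at -2.38 ± 0.10 (adjusted p = 4.32e-46), Sprr2a3 at -2.08 ± 0.14 and Sprr1a at -1.24 ± 0.12. Scel was at 0.48 ± 0.19 and was called under 4 of 10 alternative settings. In the fibroblast fraction EC raised 7 of 23 and lowered none, against 6.4% of all genes called higher, led by Tgm1 (1.79 ± 0.19), Ivl (1.87 ± 0.23) and Sprr2a3 (1.44 ± 0.23). IPFc raised Sprr2a3 (2.35 ± 0.20) and Ivl (1.63 ± 0.21) of 25, against 1.27% of all genes called. TGF-β raised Ivl (1.29 ± 0.21) and lowered 9 of 21, against 12.5% called lower, led by Tgm1 (-4.74 ± 0.23), Sfn (-3.59 ± 0.21) and Sprr2a3 (-5.80 ± 0.44), so that Ivl was higher in the fibroblast fraction under all 3 treatments.

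Of 23 transcription factors and cofactors known to bear on keratin expression, EC lowered 3 of 22 and raised 1 in epithelial cells, against 4.67% of all genes called. Hopx (-0.65 ± 0.12), Grhl3 (-0.77 ± 0.21) and Zfp750 (-0.60 ± 0.16) fell and Ehf (0.42 ± 0.10, adjusted p = 0.0215) rose, with Grhl3 called under 4 and Zfp750 under 3 of 11 alternative settings. Under IPFc 3 of 23 rose, and 2 fell, against 5.94%. Trp63 was higher in 4 of 4 mice with overlapping groups (0.72 ± 0.20, adjusted p = 0.0228), and it was called under 4 of 11 alternative settings, with an adjusted p of 5.02e-05 to 0.149 over the mice left out, lost without mouse 1 or mouse 4. Sox2 (0.34 ± 0.09) and Klf4 (0.30 ± 0.08) were higher too, under 7 and 6 of 11 settings, while Hopx (-0.58 ± 0.12) and Cebpa (-0.28 ± 0.08) fell. TGF-β lowered 16 of 22, against 20.3% of all genes called lower, with Cebpa at -1.53 ± 0.11 (adjusted p = 3.34e-27), Elf5 at -2.29 ± 0.20 and Elf3 at -1.16 ± 0.11. In the fibroblast fraction 10 of 21 rose under EC and none fell, against 6.4% called higher, among them Ehf (1.51 ± 0.21) and Elf3 (1.29 ± 0.21). Hopx fell under IPFc (-1.30 ± 0.24), and 13 of 21 fell under TGF-β, against 12.5% called lower, led by Elf3 (-4.35 ± 0.30), Hopx (-4.53 ± 0.34) and Sox2 (-4.14 ± 0.32). Cebpb rose there under EC (2.64 ± 0.23), IPFc (2.21 ± 0.21) and TGF-β (1.73 ± 0.20), but 1 of 3 mice was lower in each, and its vehicle mean of 99.4 ± 156 CPM (SD, n = 3) shows that its level rests on 1 library.

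Of 15 other intermediate filament genes, 0 of 14 tested were called under EC in epithelial cells by edgeR or DESeq2, with 2 at an unadjusted p under 0.05. IPFc raised 2 of 13, against 5.94% of all genes called, which were the mesenchymal filament genes Vim (0.78 ± 0.12, adjusted p = 9e-05) and Nes (0.70 ± 0.12, adjusted p = 0.00023). Under TGF-β 4 of 12 rose and 4 fell, against 41.5% of all genes called, with Nes from a mean of 25.4 to 390 CPM (3.84 ± 0.11, adjusted p = 1.45e-65), Vim from 146 to 1008 CPM (2.69 ± 0.10, adjusted p = 1.82e-54) and the muscle filament gene Des (3.01 ± 0.60) higher, and Lmnb1 (-0.54 ± 0.09), Bfsp1 (-1.91 ± 0.36) and Lmna (-0.36 ± 0.09) lower. Vim and Nes are also expressed by the fibroblast line, at 3256 ± 276 and 281 ± 13.1 CPM in its vehicle libraries (SD, n = 3). The epithelial TGF-β mean of Nes lay above that vehicle level and the mean of Vim below it. Against the fibroblast TGF-β libraries both were lower, with Vim there at 2956 to 3692 CPM and Nes at a mean of 977 CPM. The part of fibroblast RNA in these rises was not tested. In the fibroblast fraction EC raised Lmnb1 (1.05 ± 0.19) and lowered Nes (-0.67 ± 0.18) and Vim (-0.51 ± 0.16, called under 5 of 10 alternative settings) of 13, against 10.1%, and IPFc gave 0 calls of 14 by edgeR or DESeq2, with 0 at an unadjusted p under 0.05. Nes in the fibroblast TGF-β libraries stood at 977 ± 192 CPM (1.89 ± 0.17, adjusted p = 5.18e-27).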

How the data were processed

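The authors trimmed reads with Trimmomatic 0.30 and deposited raw counts per Ensembl gene, without normalization. The aligner, the counter and its strand setting are not given in the sources used here, and the labels and the methods name different builds (GRCm39 and GRCm38). The study used paired DESeq2 1.34.0. Here each of 13 comparisons was fitted with the quasi-likelihood test of edgeR 4.0.16 (R 4.3.3), with TMM scaling, a mean count of at least 1 and the mouse as a block. Only mice with both libraries of a comparison entered. For the differences between fractions in response, this was applied within each fraction. P-values are two-sided and Benjamini-Hochberg adjusted over all genes tested. Replicate numbers are mouse numbers: deviations from the group means correlated at a mean r of 0.264 within and -0.0851 between mice in epithelial cells, and at 0.283 and -0.0922 in fibroblasts. Counting intervals and the floor of 3 reads cover counting error only.

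Lengths came from GENCODE, and positions and promoters from RefSeq on GRCm38.p6. The family and all gene lists (plakins and desmosomes, cornified envelope, keratin regulators, other intermediate filaments, reference genes) were chosen with earlier results of these data known. Every called keratin was named in the comparisons with vehicle and between treatments, Krt4, Krt5, Krt7, Krt8 and Krt18 in epithelial cells whether called or not, at most 10 called keratins of highest level between fractions, and from each list up to 3 called genes per direction with the smallest adjusted p in the comparisons with vehicle; 1 listed gene is not reported here. Alternatives were other filters, DESeq2 size factors, DESeq2 1.42.0, robust estimation, no mouse block, 1 model of all libraries and leaving out each mouse. For comparisons within a fraction, the model of all libraries held the libraries of that fraction only. The fits were tested on simulated counts.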

Additional observations from a re-analysis of the deposited data

Results flagged for a closer look

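In groups of at least 4 libraries, the highest or lowest library stood apart by Dixon's criterion in 9 of 135 tests of an expressed keratin or of total keratin, groups at 0 in all libraries left out, and chance flags about 1 in 20. High single libraries were Krt7 at 7957 CPM in the epithelial vehicle library of mouse 3, Krt84 at 1.77 CPM in the same library, Krt10 at 9.19 CPM in the shallow fibroblast EC library of mouse 1, Krt14 at 0.599 CPM in the fibroblast IPFc library of mouse 2 and Krt87 at 1.08 CPM in that of mouse 4. In fibroblast TGF-β libraries Krt20 at 0.0687 CPM in mouse 2, Krt36 at 0.0812 CPM in mouse 1 and Krt84 at 0.0613 CPM in mouse 3 were each a single read, with 0 in the other 3 libraries, so that they met the criterion by construction. Krt36 at 0.865 CPM in the epithelial EC library of mouse 4 was the lowest of its group.

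Responses that differed between the fractions by the interaction test are listed as the epithelial minus the fibroblast log2 fold change. For EC these were Krt7 at -1.55, Krt18 at -1.43, Krt8 at -1.30, Krt79 at -1.56, Krt19 at -1.60, Krt4 at -1.53, Krt80 at -1.11, Krt23 at -0.995 and Krt36 at -3.07. For TGF-β they were Krt8 at 3.39, Krt19 at 3.27, Krt18 at 3.25, Krt7 at 3.02, Krt4 at 2.48, Krt23 at 3.38, Krt79 at 2.77 and Krt15 at -1.32. In the fibroblast fraction the epithelial reference genes moved in the same direction as the simple keratins under both treatments, and their part in these differences was not tested.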

How the results depend on the processing

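Over 131 named values and 1340 alternative values, 1196 kept direction and side of the threshold, 138 lost the call, 5 gained one and 1 reversed. The reversed value was Krt18 in epithelial cells under EC, at -0.06, which was 0.028 without mouse 2 and ran from -0.17 to 0.028 over the mice left out. Leaving the mouse out as a block ended the call of 37 of the 131 values and left the other 94 on their side. With it left out, keratins called went from 5 to 2 for EC in epithelial cells, from 7 to 1 for IPFc, from 7 to 0 for EC in the fibroblast fraction, from 6 to 1 for EC against IPFc and from 9 to 0 for the difference between fractions under EC. Without the low-count filter, EC in epithelial cells called 9 keratins and EC against IPFc 11. In a model of all epithelial libraries, EC called 3 and IPFc 3. Leaving out each mouse gave 3 to 10 keratins for EC, and 2 to 11 for EC against IPFc. TMM-scaled library sizes put total keratin in the epithelial TGF-β libraries at 6222 CPM, against 6659 CPM. Counts of keratins under alternative settings, here and above, are given without the share of all genes called under the same setting. They do not show a change particular to keratins. The causes were not tested.

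Depth limits the low keratins most: those under about 1 CPM rest on few reads, and the calls of Krt6b, Krt17, Krt33a, Krt78, Krt84 and Krt90 were lost in at least 1 alternative. Prior degrees of freedom were infinite in the fibroblast comparisons, and far above the residual ones in epithelial cells under TGF-β and between fractions under vehicle. With 3 or 4 mice per comparison, a missing call says little of a small change.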

Other observations

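Of the 22 expressed keratins, 7 stayed at or below a group mean of 5.16 CPM. Krt78 was highest under IPFc in epithelial cells, at a mean of 5.16 CPM, and lowest under TGF-β, at 1.57 CPM. Krt10, the type I keratin of suprabasal epidermis, had means of 1.85 to 3.00 CPM in the epithelial groups and 1.42 to 3.34 CPM in the fibroblast groups, so its ranges in the fractions overlapped. Krt20 had its highest mean, 1.45 CPM, in the epithelial TGF-β libraries, at 1.81, 2.43 and 0.121 CPM in mice 2, 3 and 4. The hair keratin Krt87 had means of 1.52 to 2.34 CPM in the epithelial and 0.105 to 0.519 CPM in the fibroblast groups, and no treatment changed it at an adjusted p under 0.05.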
